A study of Mus musculus with 6 samples.

Results

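The genes described here are 8 known markers of muscle satellite cells: the transcription factor genes Pax3 and Pax7, and the surface protein genes Cd34, Sdc3, Sdc4, Vcam1, Cxcr4 and Calcr. They were chosen by symbol, as published satellite cell factors and surface markers, and all 8 were found among the 27179 genes of the count table. The RNA came from C2C12, an immortal mouse myoblast line that was itself derived from muscle satellite cells. For the 3 myotube libraries, cells stayed at 100% confluence for 3 days before 5 days of differentiation in medium with 2% horse serum and an insulin, transferrin, selenium and ethanolamine supplement. The 3 myoblast libraries were made from dividing, subconfluent cells in medium with 10% fetal bovine serum. Both media had high glucose and 4 mM glutamine, and no gene was altered in either group. Serum, supplement, density and differentiation therefore cannot be told apart. The labels name no step that removed unfused cells from the myotube cultures, and all libraries come from 1 cell line.

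Satellite cells are the stem cells of skeletal muscle. They lie quiescent between the muscle fibre and its basal lamina, enter the cell cycle after injury, and their progeny either fuse into fibres or return to quiescence. Pax7 marks them in adult muscle, and Pax3 is its paralog, used by embryonic muscle progenitors and by satellite cells of some muscles. The surface proteins of the list serve to sort these cells from muscle and carry signals from the niche. In C2C12 cultures, a minority of cells known as reserve cells stays undifferentiated beside the myotubes. The libraries are bulk samples, so fewer cells of a kind and less RNA per cell cannot be told apart.

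Total counts were 7370169 to 8339589 in the myotube libraries and 10076945 to 11723881 in the myoblast libraries. The state of the cells matched their labels: the 5 myotube genes fixed as a check (Myog, Ckm, Acta1, Myh3, Mymk) were higher in myotubes and the 4 proliferation genes (Mki67, Top2a, Ccna2, Ccnb1) were lower. The muscle lineage genes Myod1, Myf5, Des and Cdh15 were detected in every library. Levels are given as CPM, the counts of a gene scaled to a common library size, after adjustment of the libraries by the trimmed mean of M-values (TMM). Differences are log2 changes of myotubes over myoblasts from edgeR's quasi-likelihood test, with p-values adjusted by Benjamini-Hochberg over all 12800 genes that passed the filter on low counts, and a gene was called at an adjusted p below 0.05. Whether the libraries of a group came from separate cultures is not stated, and the p-values therefore reflect the spread among these libraries alone, which may be technical.

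The satellite cell genes did not move as a group. In myotubes Cd34 was 2.22 times its myoblast level, Cxcr4 was at 30.5% and Sdc4 at 39.0%, Vcam1 was slightly lower at 87.1%, and Pax7 and Sdc3 did not pass the test. Pax3 and Calcr were at or near 0 counts in both groups. Of the 6 members that could be tested, 4 were called, 1 higher and 3 lower, where 79.5% of all genes tested were called, 40.2% higher and 39.2% lower. A share of 4 in 6 is not above that background. The groups did not overlap for those same 4 members, where they did not overlap for 80.5% of all genes tested, 40.6% with all myotube libraries higher and 39.9% with all of them lower. In the test against a 2-fold change 3 members passed (Cd34 higher, Sdc4 and Cxcr4 lower), against 21.6% of all genes tested, 12.4% higher and 9.2% lower. The median log2 change of the 6 members was −0.19, and that of all genes tested was 0.02.

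**Figure D1:**
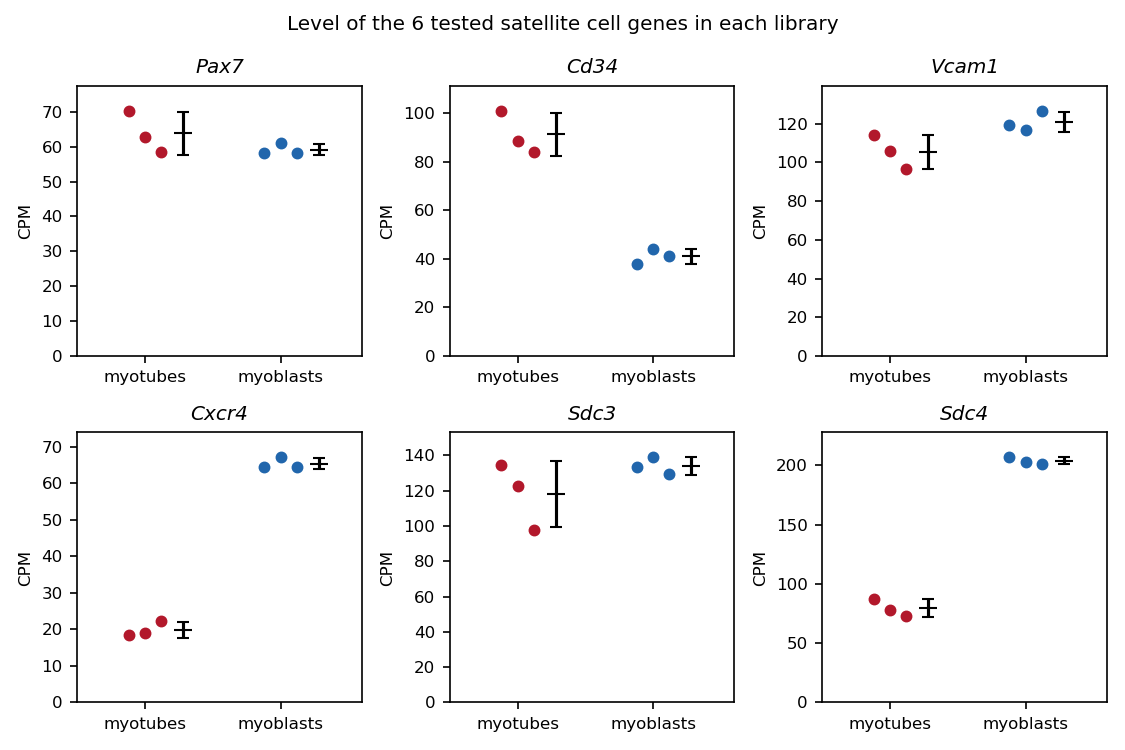
Level of each of the 6 tested members in the 3 myotube libraries (red) and the 3 myoblast libraries (blue), in CPM on axes that start at 0, with points in the order of the library numbers; the black mark and bar give the mean and SD (n = 3). Cd34 lies between 84.3 and 101 CPM in myotubes, above all myoblast libraries, Cxcr4 and Sdc4 lie far below them, and Pax7 and Sdc3 overlap.

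Pax7 encodes the paired-box factor that defines satellite cells and keeps them from being lost. It had 70.4, 62.7 and 58.4 CPM in myotube libraries 1, 2 and 3, against 58.3, 61.1 and 58.1 CPM in myoblast libraries 1, 2 and 3. The groups overlapped, and myotube library 1 stood above the other libraries. The means were 63.8 ± 6.08 CPM in myotubes and 59.2 ± 1.64 CPM in myoblasts (SD, n = 3 each), resting on 1418 and 2017 counts. The log2 change was 0.10 (SE 0.06, 95% interval −0.03 to 0.24, adjusted p = 0.140). The interval leaves room for a level from 98.0% to 118% of that in myoblasts. Without myotube library 3 the test passed, with a log2 change of 0.17 (adjusted p = 0.0222), and without myotube library 1 the log2 change was 0.030 (adjusted p = 0.691). With scaling by total counts the sign turned (log2 change −0.042, adjusted p = 0.552).

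Pax3, the paralog of Pax7, had 1 count in the 3 myotube libraries together and 2 counts in the 3 myoblast libraries together. Both groups were at or under the 3 counts that serve as a floor, which are 0.134 CPM over the myotube group and 0.0881 CPM over the myoblast group. Calcr, the calcitonin receptor that is found on quiescent satellite cells in mouse muscle, had 0 counts in all 6 libraries. A count of 0 allows a level of up to the same floors. At this depth neither gene could be compared between the groups.

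Of the 9 PAX family genes, Pax7 was the only one that passed the filter on low counts. Pax1, Pax2, Pax4 and Pax9, also named after their values were seen, had 0 counts in every library. Pax8, named after its values were seen, had 3 counts in the myotube group and 42 in the myoblast group, and the ratio of its level in myotubes over myoblasts was 0.109 with an exact 95% counting interval of 0.0216 to 0.341. Its 3 myotube counts all lay in library 1, without which it was at least 6.4-fold lower in myotubes, and the ratio was 0.169 without myotube library 3.

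Known targets of PAX3 and PAX7 were called in both directions. Of 9 such genes 8 were tested, 2 were higher and 5 lower in myotubes, a count near the background of 79.5% of all genes tested, with a median log2 change of −0.15. Fgfr4, a fibroblast growth factor receptor of the muscle lineage, had 80.5, 76.5 and 83.9 CPM in myotubes against 21.7, 21.9 and 19.1 CPM in myoblasts (log2 change 1.94, adjusted p = 1.18e-18). Met, the receptor of hepatocyte growth factor, had 109, 121 and 115 CPM in myotubes against 206, 213 and 204 CPM in myoblasts (log2 change −0.85, adjusted p = 5.64e-15). Each receptor was separated from one group to the other by much more than its spread, in opposite directions. Id3, whose product keeps myogenic factors from binding DNA, fell to 5.32 ± 0.804 CPM in myotubes, against 260 ± 6.63 CPM in myoblasts. Itm2a, a membrane protein gene, had 139 counts in the myotube group and 3 in the myoblast group, a ratio of 70.7 with an exact 95% counting interval of 23.7 to 347. All 3 myoblast counts lay in library 1, and the ratio was 45.1 without myoblast library 2, while without library 1 Itm2a was at least 48.0-fold higher in myotubes.

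Cd34 encodes a sialomucin of the cell surface that marks quiescent satellite cells in mouse muscle as well as blood progenitors and endothelium. It was the 1 member called higher. Its level was 101, 88.5 and 84.3 CPM in myotube libraries 1, 2 and 3, against 37.8, 44.1 and 41.1 CPM in myoblast libraries 1, 2 and 3. The lowest myotube library was above the highest myoblast library by nearly as much as the myoblast level itself. The mean was 91.3 ± 8.80 CPM in myotubes and 41.0 ± 3.16 CPM in myoblasts (SD, n = 3 each). The log2 change was 1.15 (SE 0.07, 95% interval 1.01 to 1.29, adjusted p = 6.72e-14), and 86.7% of the genes tested had a lower value. The test against a 2-fold change passed as well (adjusted p = 0.0257 with glmTreat). With scaling by total counts the log2 change was 1.003.

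Markers of other cells that carry CD34 were set beside it. The 6 endothelial markers summed to 4.47 to 6.56 CPM in the myotube libraries and 0.377 to 0.809 CPM in the myoblast libraries. Vwf made most of the sum in myotubes, with 3.88 ± 0.855 CPM there and 0.0571 ± 0.0496 CPM in myoblasts. Tek, which was too low to test, had 1.0 ± 0.401 CPM in myotubes and 0.411 ± 0.0364 CPM in myoblasts. Emcn had 0 counts in all libraries, and Pecam1 had 0 counts in myoblasts and 0.129 ± 0.126 CPM in myotubes. Kdr went the other way, with 1 count in the myotube group and 4 in the myoblast group, and Cdh5 had 3 and 1. The 5 blood cell markers summed to 3.71 to 4.42 CPM in myotubes and 1.70 to 2.34 CPM in myoblasts, with Cd3e at 0 counts throughout. Cd68, which made most of the sum in myoblasts, had 1.68 ± 0.511 CPM in myotubes and 1.88 ± 0.332 CPM in myoblasts. It was not called (adjusted p = 0.673). Itgam had 51 counts in myotubes and 2 in myoblasts, but 68.7% of its exon bases overlap Gm49368. The 6 markers of fibro-adipogenic and mural cells summed to 483 to 518 CPM in myotubes and 487 to 518 CPM in myoblasts. The 4 of these that were tested were called in both directions. Ly6a, the Sca-1 antigen gene, had 310 ± 20.7 CPM in myotubes and 186 ± 10.3 CPM in myoblasts, and Cspg4 had 88.3 ± 4.29 CPM in myotubes and 67.1 ± 6.82 CPM in myoblasts. Pdgfra had 8.15 ± 1.01 CPM in myotubes and 18.8 ± 1.41 CPM in myoblasts, and Pdgfrb had 96.2 ± 0.879 CPM in myotubes and 233 ± 11.4 CPM in myoblasts. The part of these markers in the change of Cd34 was not tested.

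The partners of CD34 differed from it. Podxl, which encodes podocalyxin of the same sialomucin family, fell to 3.86 ± 0.996 CPM in myotubes, against 27.3 ± 0.625 CPM in myoblasts (log2 change −2.82, adjusted p = 6.71e-16). Crkl, an adaptor that binds CD34, had 83.5 ± 4.25 CPM in myotubes and 87.1 ± 3.34 CPM in myoblasts and was not called (adjusted p = 0.314).

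**Figure D2:**
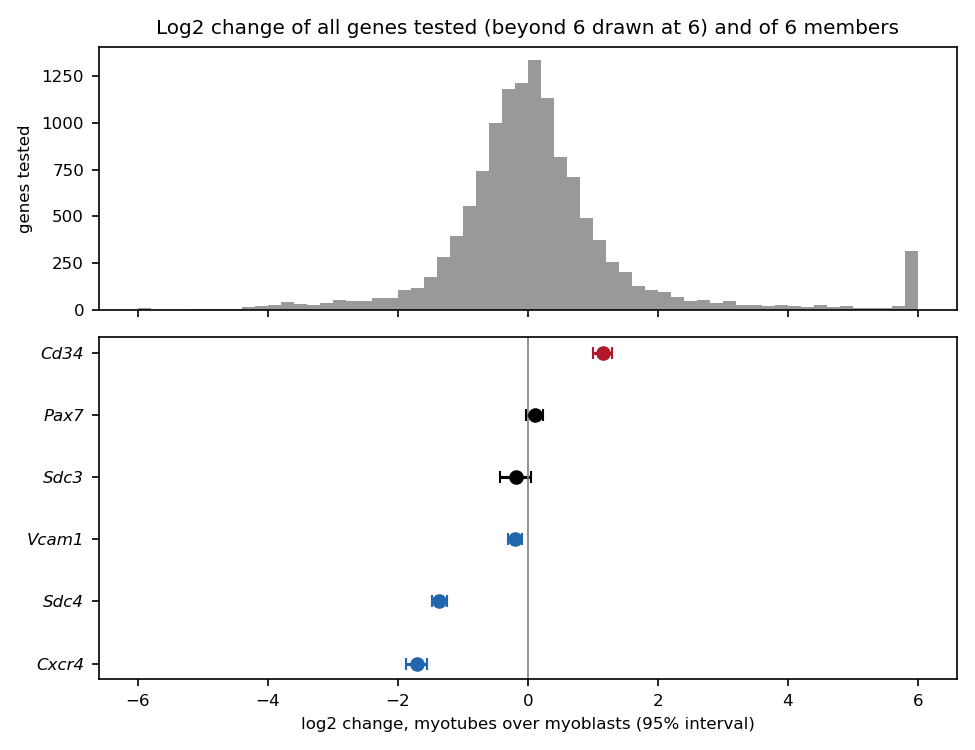
Upper panel, the number of genes tested by log2 change of myotubes over myoblasts in bins of the log2 scale, with larger changes drawn at the ends; lower panel, the log2 change of each tested member with its 95% interval, red for higher, blue for lower and black for not called. Cd34 lies at 1.15, Pax7 (0.10), Sdc3 (−0.19) and Vcam1 (−0.20) lie in the middle of all genes, and Sdc4 (−1.36) and Cxcr4 (−1.71) lie on the lower side.

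Cxcr4 encodes the receptor through which the chemokine CXCL12 guides migrating muscle progenitors and satellite cells. It had 18.4, 18.9 and 22.4 CPM in myotube libraries 1, 2 and 3, against 64.5, 67.2 and 64.5 CPM in myoblast libraries 1, 2 and 3. All myotube libraries lay well below all myoblast libraries. The log2 change of −1.71 (SE 0.08, 95% interval −1.87 to −1.56, adjusted p = 9.35e-17) was the lowest of the members, and 5.31% of the genes tested had a lower one. It rests on 446 counts in myotubes and 2230 in myoblasts.

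The ligand and the second receptor of this axis were lower too. Cxcl12, the ligand, fell to 21.97 ± 1.63 CPM in myotubes, against 107 ± 6.96 CPM in myoblasts (log2 change −2.29, SE 0.07, adjusted p = 6.72e-20). Ackr3, the atypical receptor that takes up CXCL12, had 87.5 ± 5.07 CPM in myotubes and 128 ± 6.32 CPM in myoblasts (log2 change −0.55, adjusted p = 9.04e-10). The log2 ratio of Cxcr4 over Ackr3 was −2.27, −2.14 and −1.84 in myotube libraries and −0.90, −0.91 and −1.05 in myoblast libraries. The difference between the groups was −1.13, with p = 0.1 by an exact two-sided permutation test and an adjusted p of 0.1 over the 2 ratios tested. No smaller p is possible with 3 libraries in each group, and this test cannot reach 0.05. Mif, whose product also binds CXCR4, had 159 ± 31.4 CPM in myotubes and 130 ± 0.872 CPM in myoblasts and was not called (adjusted p = 0.143). Other genomic copies share 40.5% of the 50-base windows of the Mif transcript, so its count is uncertain.

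**Figure D3:**
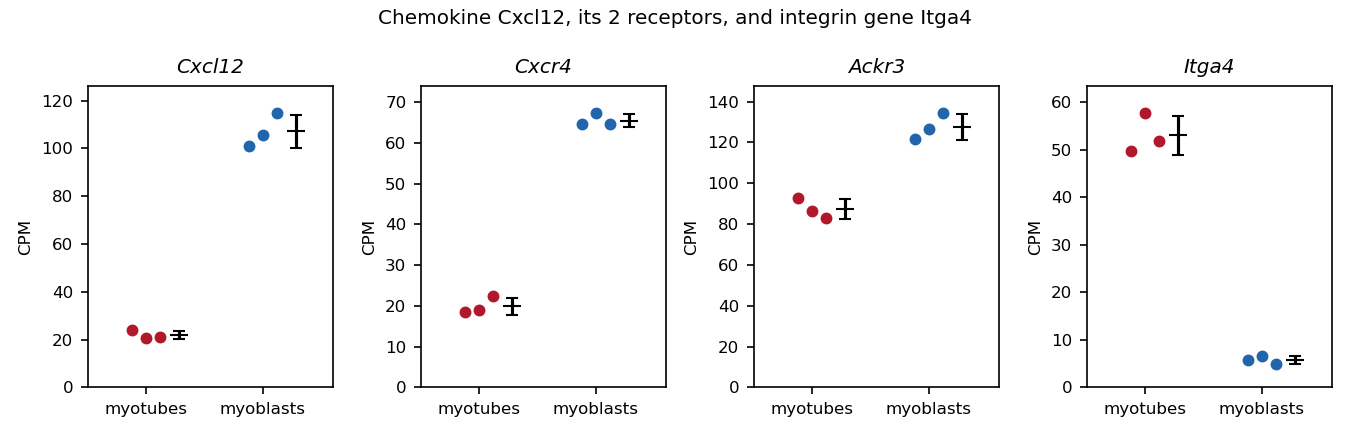
Level in CPM, on axes that start at 0, of the chemokine gene Cxcl12, its receptor genes Cxcr4 and Ackr3, and the integrin gene Itga4 in the 3 myotube libraries (red) and the 3 myoblast libraries (blue); the black mark and bar give the mean and SD (n = 3). The first 3 genes are lower in every myotube library than in any myoblast library, and Itga4 is higher, at 53.0 against 5.83 CPM on average.

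Vcam1 encodes an adhesion protein of the immunoglobulin family by which satellite cells are sorted. It had 114, 106 and 96.5 CPM in myotube libraries 1, 2 and 3, against 119, 117 and 127 CPM in myoblast libraries 1, 2 and 3. The groups were separate, but the highest myotube library came close to the lowest myoblast library. The log2 change was −0.20 (SE 0.06, 95% interval −0.31 to −0.08, adjusted p = 0.00208), and 39.8% of the genes tested had a lower value. This is a small change among these genes, and it stayed called in all 14 alternatives, with adjusted p of 3.61e-06 to 0.0200 and log2 changes of −0.35 (scaling by total counts) to −0.14.

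The receptors of VCAM1 changed more than Vcam1 did. VCAM1 binds integrins made of an alpha chain, ITGA4 or ITGA9, and the beta chain ITGB1 or, with ITGA4, ITGB7. Itga4 rose to 53.0 ± 4.14 CPM in myotubes, against 5.83 ± 0.837 CPM in myoblasts (log2 change 3.17, SE 0.10, adjusted p = 1.72e-19), and 8.0% of its exon bases overlap the antisense gene Cerkl. Itga9 had 74 counts in the myotube group and 3 in the myoblast group, a ratio of 37.6 with an exact 95% counting interval of 12.4 to 187. With each library left out, the ratio ran from 25.3 without myoblast library 1 to 77.7 without myoblast library 3. Itgb1 rose to 1517 ± 32.6 CPM in myotubes, against 1126 ± 24.6 CPM in myoblasts (log2 change 0.43, adjusted p = 5.26e-11). Itgb7 had 1 count in the myotube group and 435 in the myoblast group, and its ratio of myotubes over myoblasts was 0.00351 with an interval of 8.86e-05 to 0.0196. Its 1 myotube count lay in library 3, without which it was at least 61.1-fold lower in myotubes. The alpha chains and Itgb1 were thus higher in myotubes and Itgb7 lower.

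The partners of the calcitonin receptor were measured although Calcr was not detected. Calcrl, the related receptor gene, had 27.5 ± 3.42 CPM in myotubes and 38.0 ± 2.76 CPM in myoblasts (log2 change −0.47, adjusted p = 2.33e-05). Of the accessory proteins that set the ligand of these receptors, Ramp1 had 30 counts in the myotube group and 19 in the myoblast group and Ramp3 had 0 and 1, both too few to test. Ramp2 was called higher, with 4.91 ± 1.66 CPM in myotubes and 2.51 ± 0.831 CPM in myoblasts (log2 change 0.97, adjusted p = 0.00134), but 73.8% of the 50-base windows of its transcript are shared with its neighbour Vps25, so its count is uncertain. The ligand gene Calcb had 0 counts in myotubes and 34 in myoblasts, at least 7.17-fold lower by the floor of 3 counts over the myotube group. Its myoblast libraries had 11, 21 and 2 counts, and the bound was 4.38-fold without myoblast library 2 and 4.62-fold to 4.91-fold without any 1 of the myotube libraries.

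Type V collagen, which binds the calcitonin receptor of satellite cells in mouse muscle, was higher in 2 of its 3 chains. Col5a1 had 1145 ± 57.6 CPM in myotubes and 599 ± 10.2 CPM in myoblasts (log2 change 0.93, adjusted p = 4.15e-17). Col5a3 had 324 ± 26.6 CPM in myotubes and 149 ± 1.96 CPM in myoblasts (log2 change 1.12, adjusted p = 6.48e-17). Col5a2 had 1078 ± 48.8 CPM in myotubes and 1086 ± 6.49 CPM in myoblasts and was not called (adjusted p = 0.783). Over the whole list of 24 ligands, co-receptors and partners, 19 were tested, 7 were higher and 8 lower, which is near the 79.5% called over all genes tested, and the median log2 change was −0.03.

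Sdc3 and Sdc4 encode syndecans, transmembrane proteins whose heparan sulfate chains hold growth factors such as fibroblast growth factor and hepatocyte growth factor at their receptors. Sdc4 had 87.6, 78.0 and 73.3 CPM in myotube libraries 1, 2 and 3, against 207, 203 and 201 CPM in myoblast libraries 1, 2 and 3. Every myotube library was below every myoblast library by more than the myotube level itself. The log2 change was −1.36 (SE 0.05, 95% interval −1.47 to −1.25, adjusted p = 5.17e-18), and 7.59% of the genes tested had a lower one.

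Sdc3 had 134, 122 and 97.5 CPM in myotube libraries 1, 2 and 3, against 133, 139 and 129 CPM in myoblast libraries 1, 2 and 3. Myotube library 1 lay among the myoblast libraries and myotube library 3 far below them. The log2 change was −0.19 (SE 0.10, 95% interval −0.43 to 0.05, adjusted p = 0.132), so a level from 74.4% to 104% of that in myoblasts is within the interval. Without myotube library 1 the log2 change was −0.29 and Sdc3 was called (adjusted p = 0.000345), and without myotube library 3 it was −0.063 (adjusted p = 0.264). With all 6 libraries, Sdc3 was called when libraries were scaled by total counts (log2 change −0.33, adjusted p = 0.0180) and when low genes were left in the fit (log2 change −0.23, adjusted p = 3.56e-05). Antisense genes overlap 7.7% of the exon bases of Sdc3, among them Gm26716.

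The log2 ratio of Sdc4 over Sdc3 was −0.61, −0.64 and −0.41 in myotube libraries and 0.63, 0.54 and 0.64 in myoblast libraries. The difference was −1.16, again with p = 0.1 in an exact two-sided permutation test, the smallest possible, and an adjusted p of 0.1.

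The other syndecans moved the other way. Sdc2 rose to 650.3 ± 35.5 CPM in myotubes, against 278 ± 14.2 CPM in myoblasts (log2 change 1.23, SE 0.04, adjusted p = 1.36e-18). Sdc1, named after its values were seen, had 227 ± 13.3 CPM in myotubes and 172 ± 2.78 CPM in myoblasts (log2 change 0.39, adjusted p = 1.24e-08). Per kilobase of the longest annotated transcript, Sdc4 made 10.4 ± 0.83% of the summed level of the 4 syndecans in myotubes and 34.1 ± 0.804% in myoblasts (SD, n = 3 each). Sdc2 made 59.0 ± 3.21% in myotubes and 32.4 ± 1.35% in myoblasts, Sdc1 23.0 ± 1.29% in myotubes and 22.5 ± 0.385% in myoblasts, and Sdc3 7.60 ± 1.17% in myotubes and 11.1 ± 0.483% in myoblasts. The sum itself was 312 ± 6.04 CPM per kb in myotubes and 243 ± 2.42 CPM per kb in myoblasts. In myoblasts the shares of Sdc4 (33.3 to 34.9%) and Sdc2 (31.6 to 33.9%) overlapped at the top, and in myotubes Sdc4 came after Sdc2 and Sdc1.

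**Figure D4:**
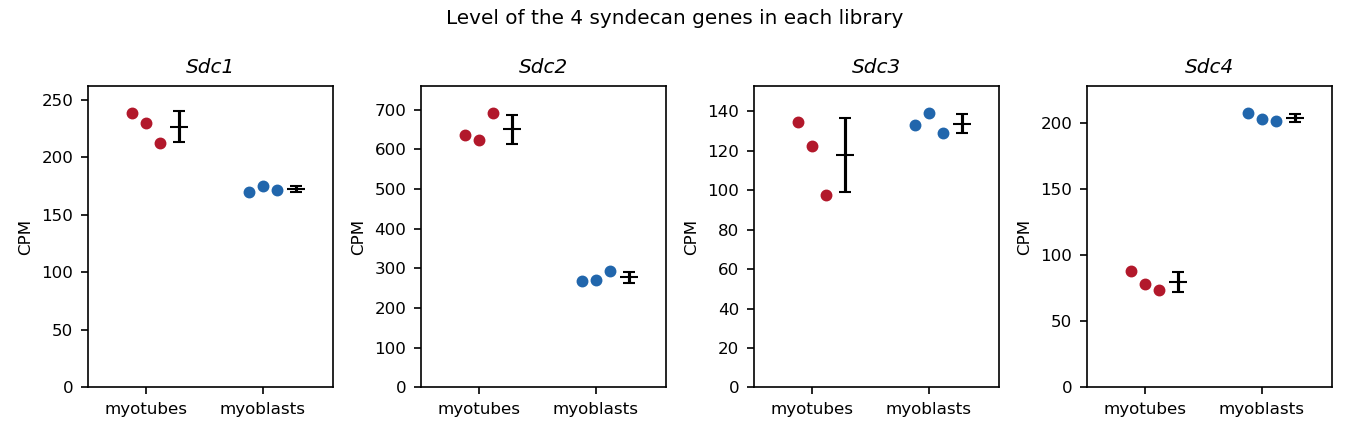
Level in CPM of the 4 syndecan genes in the 3 myotube libraries (red) and the 3 myoblast libraries (blue), each on its own axis from 0, with the mean and SD in black (n = 3). Sdc1 and Sdc2 are higher in every myotube library, Sdc4 is lower in every one, and Sdc3 overlaps.

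Among the other cell surface heparan sulfate proteoglycans, Gpc1, glypican-1, rose to 1698 ± 28.3 CPM in myotubes, against 883 ± 9.88 CPM in myoblasts (log2 change 0.94, adjusted p = 3.38e-18). Its exons overlap the antisense gene Ankmy1 over 18.9% of their length. Of the 9 genes of this list, which leaves out the members, 5 were tested, 4 were higher and 1 was not called. The number called is near the background of 79.5% of all genes tested, of which 40.2% were called higher. The median log2 change of the list was 0.93. The tested gene that was not called, Gpc6, named after its values were seen, had 23.8 ± 4.48 CPM in myotubes and 27.4 ± 2.38 CPM in myoblasts (log2 change −0.21, adjusted p = 0.0676). Without myotube library 1 or without myoblast library 3, 1 gene of the list was called lower. The same number was called lower with scaling by total counts, with low genes left in the fit, and with replicate number as a block.

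Enzymes that build and trim heparan sulfate were called in both directions. Of 18 genes 16 were tested, 5 were higher and 7 lower, beside 79.5% of all genes tested that were called, with a median log2 change of −0.11. The number higher was 2 without myoblast library 2 and 3 without myoblast library 3, and it was 2 with scaling by total counts, where 8 were lower. It was 3 with the Wald test of DESeq2, where 6 were lower. With low genes left in the fit it was also 3, where 8 were lower. The pair of extracellular sulfatases, which take sulfate groups off the chains, moved oppositely. Sulf1 had 342, 327 and 325 CPM in myotubes against 164, 168 and 164 CPM in myoblasts (log2 change 1.003, adjusted p = 1.02e-17). Sulf2 had 43.0, 39.1 and 43.2 CPM in myotubes against 161, 153 and 154 CPM in myoblasts (log2 change −1.90, adjusted p = 1.30e-20). Neither gene overlapped between the groups. The chain epimerase gene Glce rose by 0.76 and the sulfotransferase gene Ndst1 fell by 0.77 on the log2 scale. The cytoplasmic partner of the syndecans, syntenin (Sdcbp), had 179 ± 3.65 CPM in myotubes and 268 ± 5.40 CPM in myoblasts (log2 change −0.59, adjusted p = 9.73e-13).

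Hgf, Fn1 and Fgf2, on the list of ligands, co-receptors and partners, encode ligands of heparan sulfate chains. They do not stand for all such ligands. Hgf fell to 29.9 ± 3.22 CPM in myotubes, against 59.9 ± 0.471 CPM in myoblasts (log2 change −1.002, adjusted p = 1.95e-12). The fibronectin gene Fn1 had 7869 ± 165 CPM in myotubes and 10217 ± 390 CPM in myoblasts (log2 change −0.38, adjusted p = 1.27e-09). Fgf2 was near 1 CPM in both groups, with 1.20 ± 0.277 CPM in myotubes and 1.24 ± 0.335 CPM in myoblasts, and was not called (adjusted p = 0.943).

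The bases before the start site are shown for the 2 members that fell most and the 1 that rose, with Sdc3 as the paralog of Sdc4 that was not called. Each line gives the 250 bases before the annotated start on the strand of the gene, 5′ to 3′, from RefSeq on GRCm38.p6. The windows are chr1:128592300-128592549 on the minus strand for Cxcr4, chr2:164443189-164443438 on the minus strand for Sdc4, chr4:130792287-130792536 on the plus strand for Sdc3 and chr1:194938571-194938820 on the plus strand for Cd34. Capitals mark TATAA and GGGCGG on either strand.
Cxcr4: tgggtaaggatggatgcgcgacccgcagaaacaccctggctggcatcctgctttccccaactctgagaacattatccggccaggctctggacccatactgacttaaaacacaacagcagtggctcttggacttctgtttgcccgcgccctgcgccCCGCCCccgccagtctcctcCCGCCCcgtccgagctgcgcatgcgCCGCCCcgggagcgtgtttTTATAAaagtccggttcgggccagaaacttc
Sdc4: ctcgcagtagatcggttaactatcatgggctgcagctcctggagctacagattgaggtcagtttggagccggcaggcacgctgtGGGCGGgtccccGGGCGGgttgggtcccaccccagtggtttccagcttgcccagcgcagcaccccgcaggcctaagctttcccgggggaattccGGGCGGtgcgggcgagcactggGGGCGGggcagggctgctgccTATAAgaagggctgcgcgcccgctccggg
Sdc3: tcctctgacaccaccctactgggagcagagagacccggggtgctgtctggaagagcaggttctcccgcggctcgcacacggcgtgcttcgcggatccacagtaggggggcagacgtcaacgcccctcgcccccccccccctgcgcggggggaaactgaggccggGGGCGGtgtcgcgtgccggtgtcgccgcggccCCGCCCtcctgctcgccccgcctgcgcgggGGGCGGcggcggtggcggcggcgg
Cd34: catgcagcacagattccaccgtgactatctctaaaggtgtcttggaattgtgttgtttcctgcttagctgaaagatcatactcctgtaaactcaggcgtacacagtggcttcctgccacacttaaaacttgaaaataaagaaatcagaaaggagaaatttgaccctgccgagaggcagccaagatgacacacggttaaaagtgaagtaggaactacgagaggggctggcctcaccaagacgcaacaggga
Read on the strand of the gene, TATAA begins 30 bases before the start of Cxcr4 and 29 bases before that of Sdc4, and the 2 matches in Cxcr4 overlap there because TTATAA reads the same on both strands. TATAA beginning 25 to 35 bases before the start was present in 2.97% of the 32851 windows of this length in the RefSeq table. Sdc3 and Cd34 hold no TATAA in these windows, which says only that the letters are not there. GGGCGG, the core of the GC box, occurs 4 times before Sdc4, 3 times before Cxcr4, 3 times before Sdc3 and 0 times before Cd34, and 32.7% of all windows hold it. The windows of the 4 genes have 61.2%, 68.0%, 76.4% and 46.4% G and C in the order printed. CANNTG, the E-box bound by myogenic factors, and TGGGAA, the core bound by the Notch mediator RBPJ, were searched on both strands and are in none of these 4 windows, while 66.2% and 21.6% of all windows hold them. The motifs TATAA and GGGCGG were chosen after the sequences were seen.

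Levels of different members can be compared only per length. Per kilobase of the longest annotated transcript, the order in myotubes was Sdc4 (32.4 CPM per kb), Cd34 (29.8), Vcam1 (25.8), Sdc3 (23.7), Cxcr4 (11.0) and Pax7 (10.9). In that group each gene overlapped the next one in the order, except Sdc3 and Cxcr4. In myoblasts the order was Sdc4 (82.9 CPM per kb), Cxcr4 (36.2), Vcam1 (29.6), Sdc3 (26.9), Cd34 (13.4) and Pax7 (10.1), and no neighbours overlapped. With the merged exons of each gene as its length, Cd34 had 12.5 CPM per kb in myotubes and 5.63 in myoblasts. This put it below Sdc3 in both groups and below Pax7 in myoblasts. By that length Vcam1 also fell below Sdc3, at 11.9 against 19.7 CPM per kb in myotubes and 13.6 against 22.3 in myoblasts. The places of Cd34 and Vcam1 thus depend on the length used. Sdc4 came first in both groups by either length.

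Myotube libraries varied together across the members. Myotube library 1 was the highest of its group for 5 of the 6 tested members, library 3 was the lowest for 5 of 6, and Cxcr4 was the exception to both. The coefficient of variation of the 6 members was 8.37 to 15.9% in myotubes and 1.44 to 7.70% in myoblasts. Myotube libraries 1 and 3 were also the pair of replicates that differed most over all genes, with a chi-square per degree of freedom of 3.22. The part of this difference in the calls of Pax7 and Sdc3 was not tested.

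Other satellite cell surface genes were mostly called. Of 17 genes 16 were tested, and 9 were higher and 7 lower, with a median log2 change of 0.35. Beside Fgfr4 and Met, Tenm4, a teneurin of the cell membrane, rose by 1.84 on the log2 scale, to 23.7 ± 0.650 CPM in myotubes against 6.61 ± 0.620 CPM in myoblasts. The Notch receptor gene Notch2 fell by 0.69, to 276 ± 8.95 CPM in myotubes against 447 ± 10.1 CPM in myoblasts.

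Other genes linked to quiescence were called in both directions, 11 higher and 6 lower of 18, with a median log2 change of 0.50. The cell cycle inhibitor gene Cdkn1c rose to 45.3 ± 5.30 CPM in myotubes, against 3.72 ± 0.528 CPM in myoblasts, but 30.7% of its exon bases overlap an antisense gene. Spry1, an antagonist of growth factor signalling that returns satellite cells to quiescence in mouse muscle, rose to 21.0 ± 1.62 CPM in myotubes, against 2.83 ± 1.06 CPM in myoblasts, with 24.4% antisense overlap. The homeobox gene Meis2 fell to 33.0 ± 1.21 CPM in myotubes, against 111 ± 7.48 CPM in myoblasts, and the Wnt effector gene Tcf7l2 fell to 12.3 ± 2.20 CPM in myotubes, against 33.8 ± 1.37 CPM in myoblasts. All 16 tested surface genes and 17 of the 18 quiescence genes were called, beside 79.5% of all genes tested, and the lists were chosen with earlier results known.

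**Figure D5:**
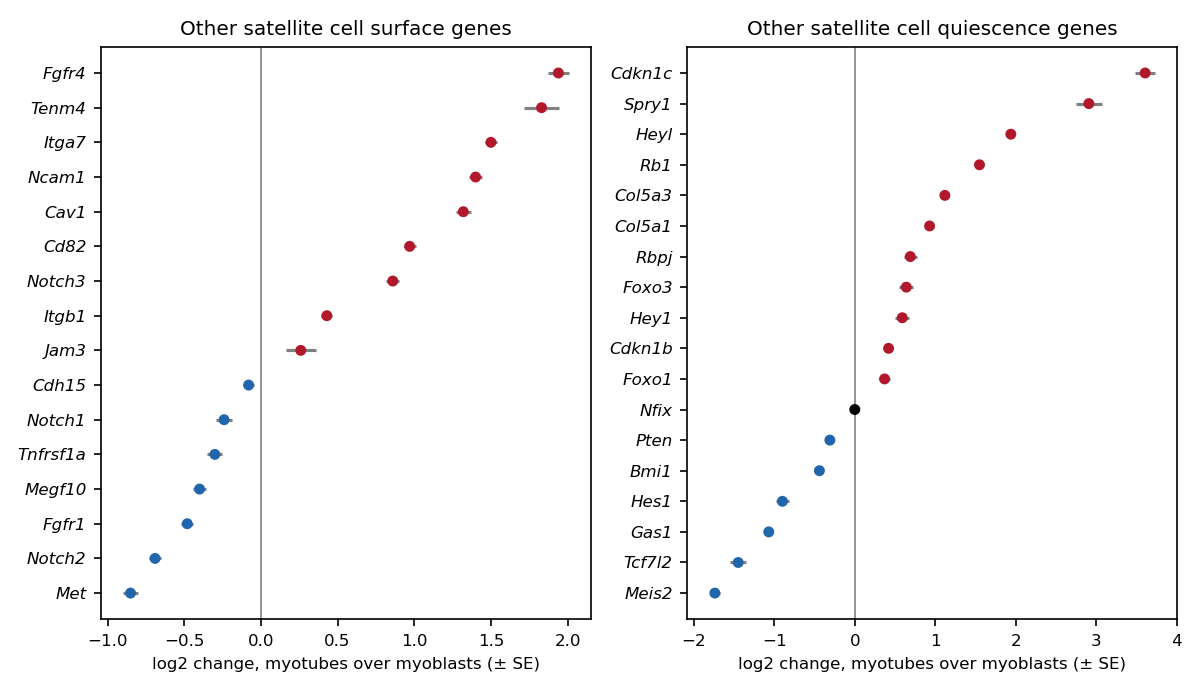
Log2 change of myotubes over myoblasts, with its SE, of the tested genes of the lists of other satellite cell surface genes (left) and other quiescence genes (right); red marks called higher, blue called lower and black not called. Both lists run from genes well below 0, such as Met (−0.85) and Meis2 (−1.74), to genes well above it, such as Fgfr4 (1.94) and Cdkn1c (3.61).

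The gene with the most similar profile was found for each called member among 9544 genes of at least 10 CPM, as the smallest root mean square difference of centred log2(CPM + 1) over the 6 libraries. It was Pde4b for Cd34 (difference 0.0458), Slc41a2 for Sdc4 (0.0323), Nrp1 for Vcam1 (0.0236) and Hnrnpm for Cxcr4 (0.0518). These are descriptions over 6 libraries of 2 groups, in which many genes share a profile.

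In the mouse assembly GRCm38, Pax7 (Entrez gene 18509) lies on chromosome 4 at 139737059 to 139833530, Pax3 (18505) on chromosome 1 at 78101267 to 78197136 and Cd34 (12490) on chromosome 1 at 194938821 to 194961292. Cxcr4 (12767) lies on chromosome 1 at 128588199 to 128592299, Vcam1 (22329) on chromosome 3 at 116110020 to 116129688 and Calcr (12311) on chromosome 6 at 3685678 to 3764713. Sdc3 (20970) lies on chromosome 4 at 130792537 to 130826318 and Sdc4 (20971) on chromosome 2 at 164424247 to 164443188. Of the 50-base windows of the longest transcript, 0% were shared with another gene for Pax7, Sdc4, Cxcr4 and Calcr, and 0.35 to 6.46% for the other members, the most for Sdc3, with Gm26716.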

How the data were processed

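RNA was measured in 3 C2C12 myotube and 3 myoblast samples. The deposited table holds the authors' raw read counts, 1 column per library. The submitters' processing notes name mm10 and the tools fastp, STAR and featureCounts. Tool versions and the strand setting of counting were not given in the sources used here, and the kit keeps strand, per the labels' protocols.

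Columns were matched to samples by name. No replicate columns were identical (chi-square per degree of freedom 1.35 to 3.22). Counts were tested with edgeR 4.0.16 in R 4.3.3: filterByExpr (minimum count 10, minimum total 15), TMM factors of 0.949 to 1.055, robust quasi-likelihood F test, Benjamini-Hochberg over 12800 genes, and glmTreat against a 2-fold change. The script was tested on simulated data. SEs were derived from the log2 change and its F statistic. Floors are 3 counts over a group; intervals and floors cover counting error only. Lengths, overlaps and shared 50-base windows come from GENCODE M21. Gene coordinates come from RefSeq, as do start-site windows, with an entry for 6 of 8 members.

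Genes were named by rule: the members, the 2 largest called changes in each direction per list among genes of at least 1 CPM, receptor partners, and the gene of closest profile; exceptions are marked, and genes of the marker and check lists, which the rule does not cover, are named beside it. Members and lists were chosen with earlier results of these data known. The fits were repeated with size factors and the Wald test of DESeq2 1.42.0, total counts, limma-voom (limma 3.58.1), other filters, replicate number as a block, thinning and leaving out each library. Some listed genes are not reported by name here.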

Additional observations from a re-analysis of the deposited data

How the results depend on the processing

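The calls of Cd34, Sdc4, Cxcr4 and Vcam1 kept their direction and their side of the threshold in all 14 alternatives, with log2 changes of 1.003 to 1.21 for Cd34, −1.50 to −1.30 for Sdc4, −1.86 to −1.66 for Cxcr4 and −0.35 to −0.14 for Vcam1. Pax7 had a log2 change of −0.042 with total counts (adjusted p = 0.552), and 0.030 to 0.17 when each library was left out, called only without myotube library 3 (adjusted p = 0.0222). Sdc3, not called with the settings of the report, was called with total counts (−0.33, adjusted p = 0.0180), no filter (−0.23, adjusted p = 3.56e-05), the replicate block (−0.19, adjusted p = 0.00560) and without myotube library 1, the range over libraries left out being −0.29 to −0.063. The cause was not tested. Total counts moved the median of all log2 changes to −0.13, against 0.02 with TMM. Members called numbered 4 or 5 throughout. Of 196 list counts under alternatives, 180 stayed within 1.5 times. Myf5 lost its call in 7 of 14 alternatives.

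Same-numbered libraries did not deviate together (r of −0.00844 to 0.00179), so the numbers are not taken as pairs. With the replicate block 10161 genes were called, against 10170 without, and both ratios kept their difference (exact sign-flip p = 0.25, the smallest that 3 pairs allow). Depth limits Pax3 and Calcr.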
